A study of Homo sapiens with 8 samples.

Results

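The regions described here are 5113 promoter array probes at which the SMAD3 immunoprecipitate (IP) was enriched over the mock IP both before and after TGFβ1 stimulation. The value of a probe is the log2 of its SMAD3 IP signal divided by its mock IP signal, less the median of this quantity over the probes of that array, and probes were selected on this value. A probe was included when it exceeded 2, a ratio 4-fold above the array median, in both basal and both stimulated replicates. The choice was made among the 161376 probes whose signal was well above background in both channels on all 4 arrays of their slide (eligible probes), out of 474411 probes in all, so the enriched set held 3.17% of the eligible probes. Slide 1 contributed 2465 of 69924 eligible probes and slide 2 contributed 2648 of 91452. Because the ratios themselves chose the probes, they are given as a description, and only the difference between stimulated and unstimulated cells was tested.

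The arrays carried DNA from A549, an established human lung alveolar epithelial carcinoma line that was serum-starved before the experiments according to the study's methods. Unstimulated cells were left untreated, and TGFb-stimulated cells received 2 ng/ml TGFβ1 for up to 2 h by the sample labels, while the study's text gives a shorter time for the arrays. Chromatin was cross-linked with formaldehyde, sonicated and precipitated with an anti-SMAD3 antibody, and the mock IP used an anti-FLAG antibody as control IgG. After linker ligation and amplification, SMAD3 IP DNA carried Cy5 and mock IP DNA Cy3 on every array, with no dye swap. Each condition had 2 replicates, labelled as biological, on 2 slides with different probes, which gave 8 arrays. All samples are 1 cell line, and the label of the cell type could not be checked against marker genes because the arrays measured DNA and not transcripts.

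SMAD3 is a receptor-regulated SMAD protein. After a TGFβ ligand binds its receptors, the type I receptor phosphorylates SMAD2 and SMAD3, which join SMAD4, move to the nucleus and act with other DNA-bound transcription factors at target promoters. The DNA-binding domain of SMAD3 recognises the short element CAGAC and the palindrome GTCTAGAC as well as GC-rich elements, of which GGCGC is one. Inhibitory SMAD proteins, ubiquitin ligases and soluble antagonists restrain the pathway, and in lung epithelium it is known for growth arrest, matrix production and loss of epithelial features.

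The following 6 promoters belong to the genes whose enriched probe had the highest lowest value among probes annotated 1 to 250 bp upstream of a start that matched a RefSeq promoter used here. They are shown as the strongest signals among the matched probes of that window, and stronger probes lay elsewhere or were not matched. Each run covers the 250 bases before the start in the RefSeq annotation of GRCh38.p14, which can differ from the start on the array. Capitals mark every match to these 3 elements on either strand, overlapping matches included.
TMEM107 (chr17:8176381-8176630, minus strand): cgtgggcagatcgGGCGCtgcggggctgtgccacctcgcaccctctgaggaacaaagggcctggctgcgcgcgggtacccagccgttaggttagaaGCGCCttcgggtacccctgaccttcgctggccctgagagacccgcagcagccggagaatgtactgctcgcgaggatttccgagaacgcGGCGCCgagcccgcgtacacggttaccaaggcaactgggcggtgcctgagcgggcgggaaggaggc
BNC1 (chr15:83284665-83284914, minus strand): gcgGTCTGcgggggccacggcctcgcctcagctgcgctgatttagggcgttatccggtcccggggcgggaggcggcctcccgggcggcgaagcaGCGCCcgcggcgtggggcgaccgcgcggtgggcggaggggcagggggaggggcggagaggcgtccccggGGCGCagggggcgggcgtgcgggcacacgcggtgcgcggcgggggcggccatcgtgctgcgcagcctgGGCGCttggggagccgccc
DNAJC7 (chr17:42017440-42017689, minus strand): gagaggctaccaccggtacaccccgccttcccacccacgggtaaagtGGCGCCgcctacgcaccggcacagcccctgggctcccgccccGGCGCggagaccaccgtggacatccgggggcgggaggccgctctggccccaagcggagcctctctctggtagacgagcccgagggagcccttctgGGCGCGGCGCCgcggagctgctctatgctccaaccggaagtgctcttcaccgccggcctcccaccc
PIM2 (chrX:48919025-48919274, minus strand): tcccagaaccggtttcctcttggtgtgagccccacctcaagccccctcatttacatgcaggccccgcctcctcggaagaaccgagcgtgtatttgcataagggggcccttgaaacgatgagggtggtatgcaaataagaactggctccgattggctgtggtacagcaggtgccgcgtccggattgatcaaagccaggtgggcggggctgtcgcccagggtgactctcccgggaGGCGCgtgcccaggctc
RAI14 (chr5:34656078-34656327, plus strand): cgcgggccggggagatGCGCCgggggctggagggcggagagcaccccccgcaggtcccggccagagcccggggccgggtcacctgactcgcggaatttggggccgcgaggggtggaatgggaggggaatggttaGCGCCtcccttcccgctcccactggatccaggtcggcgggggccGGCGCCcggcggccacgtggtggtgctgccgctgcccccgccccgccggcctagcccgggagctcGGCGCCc
ACTN4 (chr19:38647399-38647648, plus strand): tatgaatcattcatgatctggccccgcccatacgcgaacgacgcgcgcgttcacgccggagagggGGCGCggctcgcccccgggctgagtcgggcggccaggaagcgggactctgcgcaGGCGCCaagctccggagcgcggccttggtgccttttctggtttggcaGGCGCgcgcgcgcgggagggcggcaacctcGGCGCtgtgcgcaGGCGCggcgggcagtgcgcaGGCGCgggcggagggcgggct

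TMEM107 encodes a ciliary transition zone protein, BNC1 a zinc finger protein of squamous epithelia, DNAJC7 a co-chaperone, PIM2 a serine/threonine kinase, RAI14 an actin-associated ankyrin repeat protein and ACTN4 an actin cross-linker. Their GC content ranged from 61.2% in PIM2 to 81.6% in BNC1. GGCGC was present in all 6, from 1 match in PIM2 to 7 in ACTN4, CAGAC was matched only in BNC1, and GTCTAGAC in none of these 6 windows. The probe of DNAJC7, which shares a divergent promoter with NKIRAS2, had values of 5.66 and 5.48 in unstimulated and 5.85 and 6.67 in stimulated cells. At ACTN4 they were 4.6 and 4.98, then 4.98 and 4.71. In ACTN4 the conditions overlapped, and in DNAJC7 both stimulated values were above both basal ones.

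The share of probes with both signals well above background was 38.7% to 51.5% per array. Over the eligible probes, the centred ratios of replicates correlated at r = 0.94 in unstimulated and r = 0.95 in stimulated cells, and the means of the 2 conditions at r = 0.33, which is a description across probes of the same arrays. The enriched probes made up 35.5% of the 14412 eligible probes above 2 in both basal replicates and 43.6% of the 11719 above 2 in both stimulated replicates. The number of probes depended on the processing: 1727 probes met the rule after background correction with normexp, of which 1370 were among the 5113, and 9493 met it when the ratios were not centred.

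The median ratio of the enriched probes was 3.13 and 3.16 in the unstimulated replicates and 2.86 and 2.79 in the stimulated replicates, against -0.30, -0.42, -0.47 and -0.54 over all eligible probes. The median SD between replicates at a probe was 0.12 in unstimulated and 0.17 in stimulated cells. Many probes lay close to the threshold: 2564 probes (50.1%) had a lowest value above 2.5, 1074 (21.0%) above 3, 127 (2.48%) above 4 and 8 above 6. The separate channels are given as a description, because the rule on their ratio partly sets their levels. The median enriched probe stood at percentile 89.2 and 89.3 of the SMAD3 IP signal among eligible probes in unstimulated cells and at percentile 91.5 and 92.0 in stimulated cells. Its mock IP signal stood at percentile 54.2 and 53.7, then 61.4 and 61.9, so the mock signal was near the middle of the arrays and not low. Probes enriched in unstimulated cells only stood in those cells at percentile 86.6 and 86.2 of the SMAD3 IP signal. Their mock signal there stood at percentile 46.9 and 47.3. Only 5 of the 5113 probes were saturated in the SMAD3 channel on any array, and none in the mock channel.

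**Figure D1:**
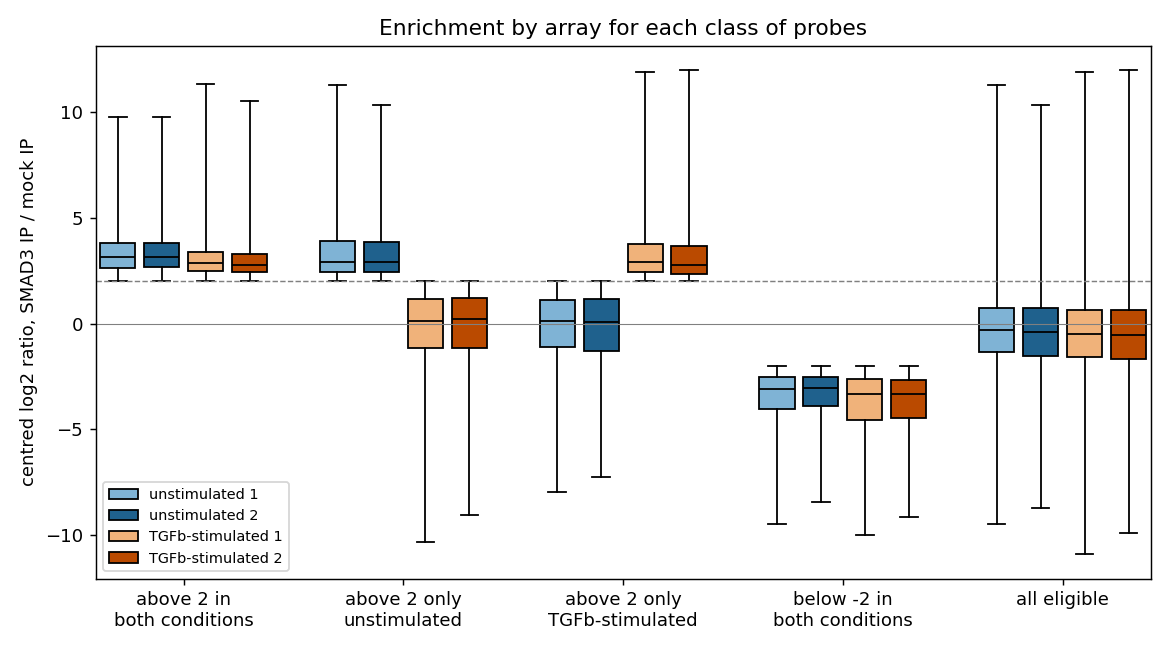
Centred log2 ratio (SMAD3 IP over mock IP) by array for 5 classes of probes (boxes, quartiles and median; whiskers, lowest and highest value). The first class, above 2 on all 4 arrays by the rule, had medians between 2.79 and 3.16, while the 8069 probes above 2 only in unstimulated cells and the 5729 above 2 only in stimulated cells had medians between 0.06 and 0.20 in the other condition.

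The strongest enrichment in both conditions was at DCD, TBC1D10A, TMEM107, ODC1 and SLC39A13. DCD, which encodes the antimicrobial peptide dermcidin, carried a probe annotated 4371 bp upstream of its start with values of 8.18 and 8.02 in unstimulated and 8.81 and 10.52 in stimulated cells. The SMAD3 IP intensity of that probe was 402568 and 300737, then 62289 and 168348, and its mock intensity 929 and 787, then 84.1 and 71.4. Both channels were thus lower on the stimulated arrays while their ratio remained high. TBC1D10A, a GTPase-activating protein for Rab proteins, had values of 8.14, 7.93, 7.40 and 7.22 in the order of the 2 unstimulated and the 2 stimulated replicates, with the basal pair above the stimulated pair. TMEM107 had 7.27, 6.88, 7.70 and 8.71 in that order. ODC1, ornithine decarboxylase of polyamine synthesis, had 6.83, 6.72, 7.77 and 7.39, with the stimulated pair higher in both genes.

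SLC39A13, a zinc transporter, had nearly equal values of 6.71, 6.89, 6.81 and 6.79, and STEAP3, a metalloreductase of iron uptake, had 7.10, 6.59, 6.86 and 7.03. In these 2 genes the conditions overlapped. DNAJC5, the cysteine string protein of synaptic vesicles, had 6.25, 6.19, 6.77 and 6.86. SPAG5, a mitotic spindle protein, had 6.36, 5.96, 7.61 and 7.89, and BNC1 had 6.17, 5.85, 6.58 and 6.31. All 3 were higher after stimulation by values that did not overlap. MFSD3 (current symbol SLC33A2) had 8.16, 7.38, 6.09 and 6.68, MGC29506 (current symbol MZB1, a B cell protein of the endoplasmic reticulum) 6.87, 7.12, 6.19 and 5.79, and BFSP1, a lens filament protein, 6.13, 5.71, 5.60 and 5.74. MFSD3 and MGC29506 were lower after stimulation without overlap, and BFSP1 overlapped. The pairs did not overlap at 9 of these 12 probes, against 76% of all enriched probes and 79% of all eligible probes. Of the 9, 4 passed the limma test at an adjusted p below 0.05, ODC1 and SPAG5 higher and MFSD3 and MGC29506 lower, where 23.2% of all tested probes were called higher and 30.6% lower. Of the 12, 10 were 45 bases long and 7 lay within 500 bp of an annotated start. Eligible neighbours within 500 bp that did not meet the rule existed at 11 of the 12. Their median was above 1 on all 4 arrays at only 1, BNC1. In the same order of replicates it was -0.60, -0.61, -1.95 and -1.35 at DCD and -2.74, -2.84, 8.17 and 7.39 at TMEM107.

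**Figure D2:**
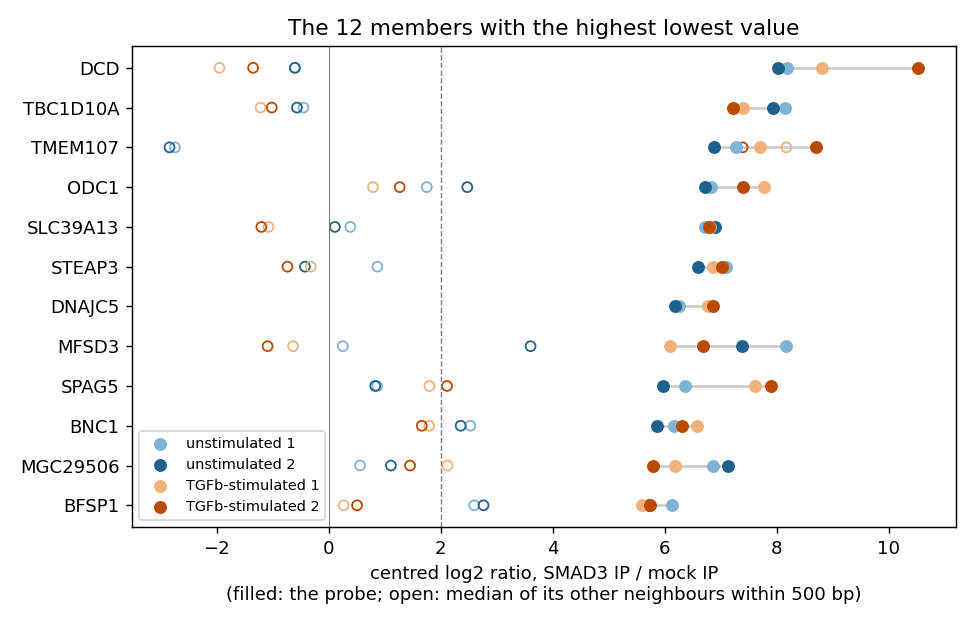
The 12 probes with the highest lowest value, with the centred log2 ratio of each of the 4 replicates (filled points) and the median of their eligible neighbours within 500 bp that did not meet the rule (open points, absent where there was none). The filled points lie between 5.60 and 10.52, and in 1 of the 12 (BNC1) the neighbours were above 1 on all 4 arrays.

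At the threshold, the 3 probes just inside the rule were annotated to GOLGA7, EGR2 and PRPF31 and just outside were C13orf21 (current symbol SERP2) and COL19A1. EGR2, an early growth response transcription factor, had values of 2.48, 2.38, 2.00 and 2.22. GOLGA7 had 2.00 and 4.52 in the unstimulated replicates, a difference far above the median SD. PRPF31 had 2.72, 2.23, 2.00 and 2.08, C13orf21 2.17, 2.00, 2.56 and 2.47, and COL19A1 2.96, 2.95, 2.27 and 2.00. The lowest values of these 5 round to 2.00, so the boundary separates probes with almost equal lowest values.

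The enriched probes clustered around annotated starts. Of the 5113, 2329 (45.6%) lay within 250 bp of the nearest annotated start, against 22.3% of eligible probes, and the median distance to it was 286 bp against 843 bp. The share of eligible probes that met the rule was 6.47% within 250 bp, 4.33% from 250 to 800 bp downstream and 2.84% from 250 to 1000 bp upstream. Farther out it was 1.30% from 1000 to 2000 bp upstream, 0.824% beyond 3000 bp upstream and 1.17% beyond 2000 bp downstream. Probes enriched in unstimulated cells only and in stimulated cells only had 28.9% and 28.5% of their number within 250 bp, and the 6466 probes below -2 on all 4 arrays had 12.6%. By annotation class, 3176 (62.1%) were inside a gene, 1707 (33.4%) in a promoter and 161 (3.15%) in a divergent promoter, against 55.2%, 38.7% and 3.02% of eligible probes.

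**Figure D3:**
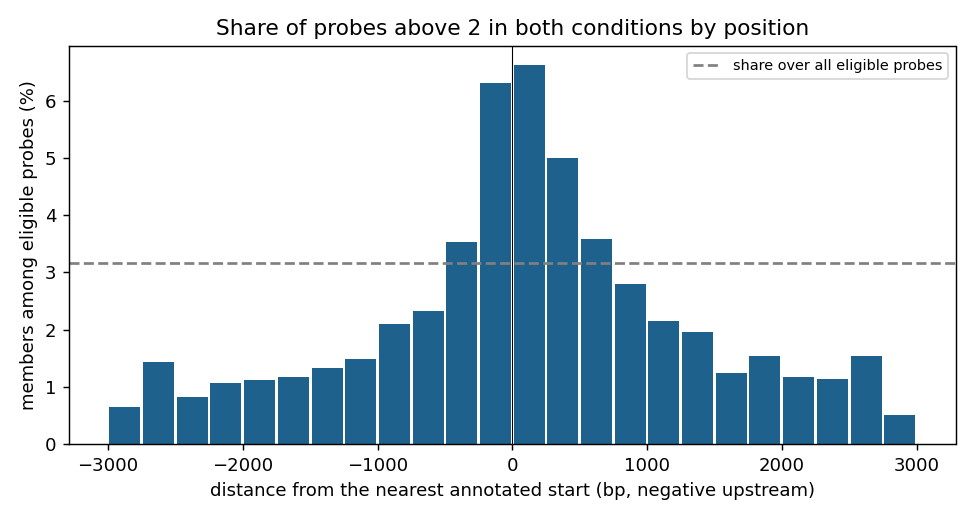
Share of eligible probes above 2 on all 4 arrays in bins of 250 bp by signed distance from the nearest annotated start (bars), with the share over all eligible probes, 3.17%, as a dashed line. The bars are highest in the 2 bins next to the start and fall on both sides.

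Probe length also differed. The array design uses probes of 44 to 60 bases, and 4773 of the 5113 (93.4%) were 45 bases long, against 75.2% of eligible probes and 28.6% of all probes. Among eligible probes of 45 bases 3.93% met the rule, and among those of 60 bases 0.694%. Of the probes below -2 on all 4 arrays 66.6% were 45 bases long, and of those enriched in 1 condition only 79.5% (unstimulated) and 78.4% (stimulated). The position of the enriched probes was much the same within 1 length, as 46.7% of the 45-base ones lay within 250 bp of a start against 25.6% of eligible 45-base probes. Among probes of 46 to 60 bases these shares were 29.0% and 12.1%. The part of probe length or base composition in the ratios was not tested.

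Sequence could be described for the promoters but not for the probes. Of the 1155 enriched probes between 250 bp upstream and 50 bp downstream of a RefSeq start, 958 (82.9%) were matched to 1 of the RefSeq promoter sequences of 300 bases (GRCh38.p14), which gave 945 genes. The comparison was with 8048 genes that had an eligible probe in that window but no enriched one, and with all 27305 promoters of the table. Median GC content was 69.3% for the 945 promoters (quartiles 63.3% and 74.7%), 65.3% for the 8048 and 58.3% for all. The median number of CpG dinucleotides was 32, 25 and 14. An enriched probe was found in 6.13% of genes whose promoter had a GC content below 50%, 5.86% at 50 to 60%, 9.53% at 60 to 70%, 15.6% at 70 to 80% and 14.2% at 80% or more.

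Motifs were searched on both strands of the same windows, and matches to different motifs can overlap. The element GGCGC was present in 88.1% of the 945 promoters, 72.0% of the 8048 and 48.3% of all promoters, and the GC box GGGCGG in 77.2%, 68.8% and 44.6%. The SMAD element CAGAC was present in 40.6%, 44.4% and 45%. The palindrome GTCTAGAC was matched in 3 of the 945 promoters (0.317%), 6 of the 8048 (0.0746%) and 55 of all (0.201%). The AP-1 element TGACTCA was present in 2.33%, 3.17% and 4.92%, the forkhead element TGTTTAC in 2.65%, 1.99% and 3.41%, and the E-box CACGTG in 10.5%, 10.4% and 7.43%. Within bins of GC content, inside which GC content can still differ, the difference in GGCGC was widest in the middle of the range. Below 50% GC this element was matched in 17.1% of promoters with an enriched probe and 16.6% of the others. At 50 to 60% it was matched in 63.1% and 46.3%, at 60 to 70% in 89.9% and 76.3%, at 70 to 80% in 97.8% and 95.1%, and at 80% or more in 100% and 98.9%. CAGAC was matched in 45.4% and 46.7% at 60 to 70% GC and in 35.7% and 38.4% at 70 to 80%.

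Neighbouring probes give a reading apart from the probe itself, although neighbours that met the rule were left out. Sonicated fragments can span several probes of the array, so the eligible probes within 500 bp that did not themselves meet the rule were compared. For 4898 enriched probes with such a neighbour, the median over probes of the neighbours' median ratio was 0.20 and 0.17 in unstimulated and 0.08 and 0.08 in stimulated cells. For the 135296 other eligible probes with a neighbour it was -0.31, -0.42, -0.48 and -0.53. The neighbours of enriched probes were thus higher by about the same amount on every array, and yet far below the threshold of 2. Neighbours above 2 on all 4 arrays, 8.04% of the eligible ones, had been left out of these medians. The median of the neighbours that did not meet the rule exceeded 1 on all 4 arrays around 334 enriched probes (6.82%) and around 2.83% of the others.

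Beyond 100 bp the difference shrank with distance. Within 100 bp, where there were only 109 pairs, the neighbours' medians were 0.07, 0.00, 0.20 and 0.29, against -0.36, -0.48, -0.60 and -0.68 around other eligible probes. From 100 to 200 bp away the neighbours' medians were 0.39, 0.37, 0.23 and 0.23, from 400 to 500 bp 0.01, -0.06, -0.16 and -0.20, and from 1000 to 2000 bp -0.39, -0.52, -0.56 and -0.63. At 1000 to 2000 bp the neighbours of other eligible probes had -0.42, -0.55, -0.62 and -0.68. Another enriched probe lay within 500 bp of 1140 of the 5113 (22.3%), against 8.77% of other eligible probes. Of all eligible neighbours within 500 bp, 8.04% met the rule, against 3.82% around other eligible probes, 5.33% around probes enriched in unstimulated cells only and 5.02% around those enriched in stimulated cells only. The neighbours' level did not follow the strength of the central probe. Around the 2549 probes with a lowest value up to 2.5 it was 0.20, 0.21, 0.09 and 0.06, and around the 127 above 4 it was 0.24, 0.25, 0.07 and 0.01.

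**Figure D4:**
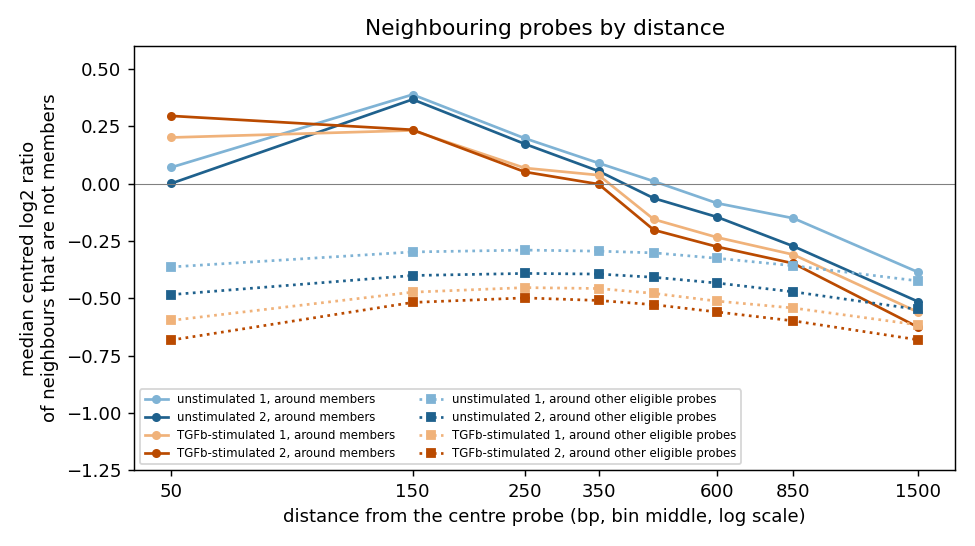
Median centred log2 ratio of eligible neighbours that did not meet the rule, by distance from the central probe, for each of the 4 replicates (solid lines and circles, around enriched probes; dotted lines and squares, around other eligible probes). The solid lines lie above the dotted line of the same array at each distance, and beyond 100 bp the gap narrows towards 1500 bp.

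Among the longest stretches of enriched probes were those at FOXF1, SLC18A3, DUSP4, NTN1 and HES5. One of the 6 longest is not reported here, so the named ones give no count of directions. With neighbouring enriched probes at most 1000 bp apart counted as a run, 3614 of the probes stood alone, 557 runs held 2, 107 held 3 and 15 held 4 or more. FOXF1, a forkhead factor of lung mesenchyme, had a run of 6 from 2726 bp upstream to 505 bp downstream, out of 14 eligible probes in the span. Its mean values were 3.30 and 3.42 in unstimulated and 2.37 and 2.72 in stimulated cells, and 3 of the 6 probes were called lower by limma, where 27.2% of all enriched probes were. SLC18A3, the vesicular acetylcholine transporter, had 5 of 11 eligible probes over 1754 bp with mean values of 3.52, 3.29, 3.25 and 2.84. Its probe 1829 bp downstream of the nearest start had 2.70 and 2.82, then 4.57 and 4.26, and was called higher, while the one at 1121 bp had 4.57 and 3.85, then 2.66 and 2.25, and was called lower.

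DUSP4, a phosphatase of MAP kinases, had 5 of 8 eligible probes over 1307 bp with mean values of 3.83, 3.48, 2.67 and 2.57. NTN1, the axon guidance protein netrin-1, had 4 of 6 with 4.96, 4.54, 2.80 and 3.05. HES5, a Notch target, had 4 of 5 eligible probes over 776 bp with 4.61, 4.37, 3.24 and 2.92. At HES5 all 4 probes were called lower by limma and at DUSP4 2 of 5, where 27.2% of all enriched probes and 30.6% of all tested probes were. Over whole genes, 4156 of 19706 gene names with an eligible probe (21.1%) had an enriched one, and 181 of them had 3 or more. EGR2, BARX1, GRIN1, LRRC24 and RKHD3 had 5 each without a run of that length, at 19, 29, 33, 25 and 27 eligible probes.

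Of the SMAD proteins and their regulators, 8 of 22 genes carried an enriched probe, 10 of 227 eligible probes in all (4.41%, against 3.17% over all eligible probes). The genes made up 36.4%, against 21.1% of all gene names with an eligible probe. Gene shares, here and in the lists below, were not adjusted for the number of eligible probes per gene. Unless stated, distances in the lists are to the nearest annotated start, which is not always the start annotated to the named gene. SMAD4, the common partner of SMAD3, had 2, one 173 bp upstream of the nearest start with values of 2.53, 2.80, 2.48 and 2.60 and one 518 bp downstream with 2.59, 2.47, 2.40 and 2.57. The inhibitory SMAD6 had values of 2.43, 2.5, 2.44 and 2.38 at 954 bp, and the inhibitory SMAD7 had 2.62, 2.71, 2.15 and 2.23 at 326 bp. The conditions overlapped at both SMAD4 probes and at SMAD6, and at SMAD7 the stimulated pair was lower without passing the limma test. The study reports stronger SMAD3 binding after TGFβ1 at the SMAD6 and SMAD7 promoters from fitted peaks, and at SMAD7 also by PCR. The values here cover only the probe of each gene that was above 2 in both conditions. SMAD1 and SMAD5 transmit BMP signals. SMAD1 had 2 probes, 3.49, 3.45, 2.82 and 2.75 at 57 bp upstream and 3.47, 2.94, 3.01 and 2.84 at 60 bp downstream, and SMAD5 had 2.92, 3.11, 2.41 and 2.30. STRAP, which stabilises the SMAD7 and receptor complex, had 3.29, 3.43, 3.0 and 3.40. The ubiquitin ligase SMURF1 had 4.22, 4.16, 3.11 and 2.63, and ZFYVE9, the anchor that presents SMAD3 to the receptor, 7.12, 7.92, 2.73 and 2.5. Of these 10 probes 3 passed the limma test and were lower after stimulation, against 30.6% of all tested probes and 27.2% of the enriched ones called lower: ZFYVE9 by -4.90 (SE 0.34, adjusted p = 0.000618), SMURF1 by -1.32 (adjusted p = 0.0127) and the upstream probe of SMAD1 by -0.68 (adjusted p = 0.0486).

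Ligands, receptors and antagonists of the TGFβ superfamily had 28 enriched probes of 638 eligible (4.39%), in 23 of 55 genes (41.8%, against 21.1% of all gene names). Among ligands, TGFB2 had values of 2.88, 3.66, 2.60 and 2.42, TGFB3 3.73, 3.91, 2.36 and 2.46, and BMP7 2.94, 2.83, 4.45 and 4.22. TGFB3 was lower and BMP7 higher after stimulation without overlap of the replicates. Among receptors, TGFBR1 had 3.41, 3.18, 2.53 and 2.04 and TGFBR2, the receptor that binds TGFβ first, 3.32, 3.27, 3.74 and 2.94. The activin receptor ACVR2B had 3.55, 3.57, 4.51 and 3.99 at 114 bp upstream and 2.06, 2.83, 3.60 and 3.27 at 263 bp downstream. TGFBR2 overlapped between conditions, and at both probes of ACVR2B the stimulated pair was higher without passing the test. LTBP1, which holds latent TGFβ in the matrix, had 5.34, 5.36, 2.44 and 2.23, and the activin-binding FSTL3 3.31, 3.06, 3.81 and 3.69. The limma test called 3 of the 28 higher, 1 each at ACVR1C, BMP7 and INHBB, and 7 lower, where it called 8.25% of the enriched probes higher and 27.2% lower, with the largest difference at LTBP1 (-3.01, SE 0.22, adjusted p = 0.00069).

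Transcription factors known to act with SMAD3 had 27 enriched probes of 524 (5.15%), in 17 of 31 genes (54.8%, against 21.1% of all gene names). They included the AP-1 members FOS, FOSB, JUNB and JUND, ATF3, FOXO1, FOXO3 and FOXO4, CEBPA and CEBPD, RUNX1 and RUNX2, GATA3, SP3, E2F5, MYOD1 and TFE3. FOSB had values of 4.26, 3.88, 4.13 and 3.38 at a probe 805 bp from the nearest start and 2723 bp from the annotated FOSB start. The probe of FOS 93 bp upstream had 2.92, 2.95, 2.74 and 2.88. The pairs overlapped at FOSB and lay apart by little at FOS. A second probe of FOS, 1363 bp upstream, had 2.00, 2.17, 3.85 and 3.93. SP3, which binds GC boxes, had 5.09, 4.93, 2.22 and 2.02 at 668 bp. The counts called by limma were near those shares. Of the 27, it called 2 higher, these being the distal FOS probe (1.80, SE 0.22, adjusted p = 0.00277) and FOXO3, and 8 lower, SP3 by the most (-2.89, SE 0.23, adjusted p = 0.000813).

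Extracellular matrix genes, proteases and integrins had 37 enriched probes of 1785 (2.07%), below the 3.17% over all eligible probes. These lay in 30 of 142 genes (21.1%, equal to the share of all gene names). COL27A1, a fibrillar collagen, had values of 4.64, 4.21, 5.12 and 4.38 and FBN1, fibrillin of microfibrils, 3.61, 3.34, 3.68 and 4.11. CTGF, a matricellular growth factor and known TGFβ target, had 2.66, 2.20, 2.99 and 2.59 at 390 bp and 2.48, 2.38, 3.19 and 2.73 at 498 bp. THBS1, an activator of latent TGFβ, had 3 probes, of which the strongest had 3.18, 3.47, 2.95 and 3.29, and the one 378 bp upstream had 2.07, 2.02, 3.35 and 3.25 and was called higher. The pairs overlapped at COL27A1, and at FBN1 the stimulated pair was slightly higher. Limma called 6 of the 37 higher and 5 lower, against 23.2% and 30.6% of all tested probes and 8.25% and 27.2% of the enriched ones. The proteoglycan BGN had 2.27, 2.06, 6.83 and 7.65 at 528 bp upstream and was called higher by 5.07 (limma, SE 0.35, adjusted p = 0.000595), whereas its probe 2115 bp upstream had 2.85, 2.95, 2.76 and 3.02 (change -0.01, limma adjusted p = 0.97). The proteases ADAMTS8 (8.35, 7.80, 2.10 and 3.30) and ADAMTS1 (7.32, 6.78, 3.11 and 3.34) were called lower, with changes of -5.38 and -3.83 (limma, adjusted p = 0.00114 and 0.000717).

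Genes of epithelial-mesenchymal transition had 8 of 273 probes (2.93%) in 6 of 21 genes (28.6%, against 21.1% of all gene names). OCLN, occludin of tight junctions, had values of 4.65, 4.51, 4.06 and 3.74 at 21 bp, and DSP, desmoplakin of desmosomes, 3.82, 4.11, 3.12 and 2.95 at 415 bp. CLDN7, a claudin, had 5.41, 5.16, 2.33 and 2.44 and was called lower by -2.90 (limma, SE 0.23, adjusted p = 0.000823), while TWIST1, a transcription factor of the transition, had 3.41, 2.59, 4.49 and 4.45 and was called higher by 1.47 (limma, SE 0.34, adjusted p = 0.0207). Lung epithelial genes had 7 of 317 (2.21%), in 4 of 19 genes (21.1%, equal to the share of all gene names). All 7 passed the limma test, against 53.8% of all tested probes and 35.4% of the enriched ones in either direction. The water channel AQP5 of alveolar type I cells had 6.36, 5.90, 2.98 and 3.01 at 3145 bp and 5.57, 5.55, 3.50 and 4.11 at 204 bp. TITF1 (current symbol NKX2-1), the lung and thyroid homeobox factor, had 5.22, 5.14, 3.18 and 3.07 at 120 bp from the nearest start. That probe lay 1541 bp upstream of the annotated TITF1 start. Both genes were lower after stimulation at both of their probes, whereas GATA6 had 1 probe lower (5.77, 5.57, 2.92 and 2.99) and 1 higher (2.85, 3.08, 4.29 and 4.67), and FOXA1 1 higher (2.32, 2.30, 5.90 and 3.76).

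Growth arrest and ID genes had 18 of 327 probes (5.50%) in 13 of 24 genes (54.2%, against 21.1% of all gene names). Among these genes were the cyclin-dependent kinase inhibitors CDKN1A, CDKN1B, CDKN1C and CDKN2A. ID1, an inhibitor of basic helix-loop-helix factors and a known target of BMP and TGFβ signals, had values of 3.45, 3.63, 3.65 and 3.93 at 188 bp. CDKN1A, which encodes p21, had 3.41, 3.01, 2.81 and 2.58. GADD45B, a stress response gene, had 4.6, 4.70, 3.68 and 3.91 at 878 bp and ID4 5.39, 5.23, 3.46 and 3.23 at 386 bp. At ID1 the stimulated pair lay just above the basal one, and at GADD45B and ID4 it lay below. Limma called 1 of the 18 higher, a second probe of ID4, and 4 lower, against 8.25% and 27.2% of the enriched probes. Of the genes the study names as bound, 4 of 18 carried an enriched probe (22.2%, against 21.1% of all gene names), namely C14orf43, C14orf79, SMAD6 and SMAD7. They held 5 of 304 eligible probes (1.64%, against 3.17% over all eligible probes). The study called binding by a peak fitted over several probes, with or without stimulation. The rule here needs a single probe above 2 on all 4 arrays, so these counts do not measure the study's binding. None of the 5 passed the limma test (adjusted p = 0.105 to 0.852), against 53.8% of all tested probes and 35.4% of the enriched ones in either direction. The study chose that list on its own samples.

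Gene families outside the pathway gave a range of shares to read these against. Olfactory receptors had 2 of 539 eligible probes (0.371%), at OR2T8 and OR5C1, and keratins and keratin-associated proteins 3 of 565 (0.531%). Replication-dependent histones had 3 of 113 (2.65%), each 131 or 132 bp downstream of the start, with HIST1H2AH (current symbol H2AC12) at 4.30, 3.76, 4.31 and 3.94. Zinc finger ZNF genes had 92 of 2904 (3.17%), solute carriers 114 of 3434 (3.32%) and cytosolic ribosomal proteins 19 of 426 (4.46%), the first equal to the share over all probes. By gene, the shares were 0.909% for olfactory receptors, 3.7% for keratins and 6.67% for histones. They were 21% for ZNF genes, 28.3% for solute carriers and 22.2% for ribosomal proteins, against 21.1% of all gene names. In 3 families picked after the values were seen, the share was 4.70% each: 145 of 3084 probes of developmental transcription factor families such as HOX, PAX, SOX and FOX genes, 26 of 553 of WNT ligands and Frizzled receptors and 17 of 362 of dual-specificity phosphatases. Developmental factors had an enriched probe in 87 of 159 genes (54.7%, against 21.1% of all gene names). These 159 genes had 3084 eligible probes, while all 19706 gene names had 161376, so a gene here had more probes that could meet the rule. The strongest were SOX1 (5.14, 4.99, 5.79 and 5.55), the T-box factor TBX21 (6.37, 5.73, 4.76 and 4.97) and HOXA10 (4.76, 4.67, 5.27 and 5.30).

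MicroRNA genes named 36 enriched probes of 1961 eligible ones (1.84%). The strongest was 29 bp inside hsa-mir-129-2, with values of 4.98, 4.33, 4.95 and 4.83. A probe 932 bp upstream of hsa-mir-124a-3 had 3.48, 3.72, 3.93 and 3.89, and one 32 bp inside hsa-mir-212 had 4.47, 4.56, 3.13 and 3.19. The first of these 3 overlapped between conditions, the second was higher and the third lower after stimulation. Around hsa-mir-124a-3 the neighbouring probes were high as well, at 1.98, 2.16, 2.20 and 2.35. It was among the 8 probes whose neighbours were highest on every array, together with THUMPD2, FAM26F (current symbol CALHM6), C8orf55 (current symbol THEM6), GPR27, RET, C9orf91 (current symbol TMEM268) and PLXND1. At THUMPD2, a probe 49 bp upstream of the start had 3.54, 3.66, 4.85 and 4.52 and its neighbours 2.74, 2.89, 2.77 and 2.42, and at the semaphorin receptor PLXND1 the neighbours had 3.21, 3.33, 1.93 and 1.88.

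The ratio of 1812 of the 5113 enriched probes (35.4%) differed between stimulated and unstimulated cells by limma at an adjusted p below 0.05. Of the 5113, 422 were higher after stimulation (8.25%) and 1390 lower (27.2%). Over all 161376 tested probes 23.2% were higher and 30.6% lower, so in this fit calls in both directions were fewer among the enriched probes. Their values were bounded from below by the rule. For the lower calls this depended on the fit. With no background filter on the probes fitted, 23.8% of the enriched probes were lower, against 12.4% of all. With a trend in the limma variance prior these shares were 30.9% and 30.8%. The median change was -0.30 on the log2 scale against -0.18 over all probes (-0.22 against -0.23 without unstimulated replicate 2), and 74.5% of the enriched probes changed by less than 1, against 47.1% of all. The direction of the median depended on the background correction. For the same 5113 probes it was 0.31 with normexp values. The share of higher ones among the calls was 23.3%, and the other settings chose other probes by the same rule. It was 42.7% among the 1727 probes with normexp, 36.4% among 10299 after loess and 34.0% among 9493 without centring. Over all tested probes this share was 43.1%, and 40.9%, 48.4% and 47.9% under those settings. The p-values measure the spread between 2 replicates per condition, and probes on 1 array are not independent.

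The 2 channels differed between the called groups. Relative to the array medians of eligible probes, the 1390 lower probes had a median change of -0.09 in SMAD3 IP signal and 0.96 in mock IP signal, and the mock signal was higher after stimulation at 89.3% of them. The 422 higher probes had 1.48 in SMAD3 IP signal and 0.01 in mock signal, and the SMAD3 IP signal was higher at 95.5% of them. Over all enriched probes the 2 medians were 0.47 and 0.54, against 0.15 and 0.10 over all eligible probes. The part of the mock IP in the lower ratios was not tested beyond these values.

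The largest falls were at WNT16, PPM1A, OTX2, LIPT1, FXYD5 and NTN1. WNT16, a WNT ligand, had values of 9.79 and 9.40 in unstimulated and 2.27 and 2.11 in stimulated cells at 1328 bp downstream of the nearest start, a change of -7.40 (SE 0.25, limma adjusted p = 0.000278). Its SMAD3 IP intensity was 289749 and 315771, then 774 and 814, and its mock intensity 278 and 333, then 121 and 122. PPM1A, a phosphatase that acts on SMAD2 and SMAD3, had 9.36, 9.76, 2.62 and 2.39 at 478 bp upstream (-7.05, SE 0.26). Its SMAD3 IP intensity went from 294434 and 277317 to 722 and 1008, and its mock intensity from 300.1 and 217 to 70.8 and 120. The homeobox gene OTX2 had 9.16, 8.78, 2.37 and 2.5, LIPT1, of lipoic acid metabolism, 9.01, 8.33, 2.78 and 2.41, and FXYD5, a regulator of the sodium pump, 8.44, 7.47, 2.49 and 2.34. NTN1 had 8.68, 8.25, 2.75 and 3.11.

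The 3 largest rises were at TCEA2, hsa-mir-15b and PDGFRL, and ATP6V1B1 also rose. TCEA2, a transcription elongation factor, had values of 2.11, 2.04, 10.92 and 9.69, a change of 8.23 (SE 0.46, limma adjusted p = 0.000395). The probe annotated to hsa-mir-15b, 3251 bp upstream of the microRNA and 778 bp downstream of the nearest start, had 3.45, 3.24, 11.35 and 10.52 (7.59, SE 0.35). PDGFRL, a receptor-like protein, had 3.78, 3.54, 10.47 and 9.31. ATP6V1B1, a proton pump subunit, had 2.02, 2.08, 8.33 and 7.55. At all 10 of these probes the conditions were far apart relative to the replicates, and the adjusted p ranged from 0.000278 to 0.000635 in limma. With normexp values the changes of PPM1A and NTN1 were -5.76 (against -7.05) and -4.5 (against -5.53), and they no longer passed, at adjusted p of 0.0679 and 0.0872 in limma.

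**Figure D5:**
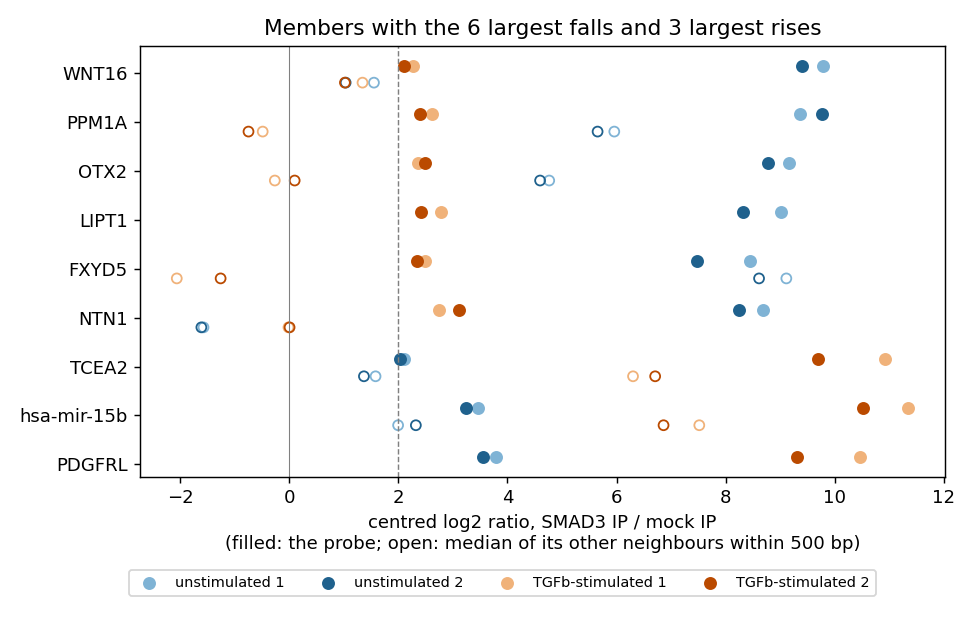
Centred log2 ratio of the enriched probes with the 6 largest falls and the 3 largest rises after TGFβ1, by replicate (filled points), with the median of their eligible neighbours within 500 bp that did not meet the rule (open points, absent at LIPT1 and PDGFRL, which had none). All filled points lie above 2, and the neighbours moved with the probe at PPM1A, OTX2 and FXYD5 and at TCEA2 and hsa-mir-15b.

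Neighbouring probes moved with some of these 10 and not with others. Around PPM1A the neighbours' median went from 5.96 and 5.65 to -0.48 and -0.75, around OTX2 from 4.77 and 4.6 to -0.26 and 0.10, and at the 1 neighbour of FXYD5 from 9.11 and 8.61 to -2.06 and -1.26. Around WNT16 it was 1.55 and 1.04, then 1.34 and 1.02, and around NTN1 -1.57 and -1.61, then -0.01 and 0.01. The neighbours of TCEA2 went from 1.58 and 1.37 to 6.30 and 6.71. Over all enriched probes the neighbours showed little of this. Of the 1179 neighbours of the 422 higher probes 26.0% were called higher, against 23.2% of all probes, and of the 4218 neighbours of the 1390 lower probes 31.4% were called lower, against 30.6%.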

How the data were processed

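The authors deposited 1 scanner file per array, which per the file headers came from Agilent Feature Extraction 9.5.1.1 and holds processed intensity values for both channels, already background-subtracted and dye-scaled. The authors deposited log2 ratios in the series matrix as well, which equalled the log2 ratio of those processed signals and served as an alternative. The study's methods name hg17 for its genomic analyses, while the scanner files name no build, and no array coordinates are printed.

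Ratios were centred on the median over non-control probes of each array. The stimulated minus unstimulated difference was fitted with limma 3.58.1 in R 4.3.3 on the 161376 probes well above background, both slides in 1 fit, with Benjamini-Hochberg adjustment and a threshold of 0.05, after tests on simulated data. The other steps used Python 3.11.15, numpy 2.4.6 and pandas 2.3.3. The labels call the replicates biological, and p-values measure only the spread between these samples, which were scanned as 1 batch. The number of arrays limits the precision. The methods of the study mention more replicates than the 2 per condition used here.

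The probes and the gene lists were chosen with earlier results of these data known, and the lists of developmental factors, WNT and Frizzled genes and dual-specificity phosphatases after their values were seen. Named probes were the 12 with the highest lowest value, 3 on either side of the threshold, the 6 largest called changes in each direction, the 6 longest runs, the 25 strongest of the lists and the 8 with the highest neighbours, of which a few are not reported here. List genes beyond those 25, microRNA probes, the promoters printed and probes named for gene families were chosen after their values were seen. Probe base composition and motifs in probes, which had been planned, were not analysed here, and RefSeq promoter sequences of GRCh38.p14 were used in their place, matched for 80.4% of the eligible probes in the window.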

Additional observations from a re-analysis of the deposited data

How the results depend on the processing

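The number of probes above the threshold in both conditions was 5113. It was 1727 with normexp background correction, 10299 after loess within each array, 9493 with the uncentred deposited ratios, 8836 at a threshold of 1.5 and 1074 at 3, and 5451 to 5844 when 1 replicate was left out. Of the 1727, 1370 were among the 5113. The counts of enriched probes called higher and lower, 422 and 1390, were 38 and 51 with normexp, 1492 and 2605 after loess, 1281 and 2487 without centring, and 87 and 294 at a threshold of 3. Leaving out 1 replicate gave 225 to 290 higher and 801 to 931 lower, lowest for the higher calls without TGFb-stimulated replicate 1 and for the lower calls without unstimulated replicate 2. The median change of -0.30 was -0.16 with normexp, -0.16 after loess, -0.18 without centring and -0.35 to -0.22 with 1 replicate left out. For the same 5113 probes it turned to 0.31 with normexp values, an alternative chosen after seeing the data, as was the split by probe length. The cause was not tested.

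The neighbours' median over arrays, 0.14 against -0.43 around other probes, was 0.29 against 0.04 with normexp, 0.56 against 0.12 after loess, 0.51 against 0.04 without centring, 0.0685 to 0.13 with 1 replicate left out, 0.25 within 250 bp and 0.0301 with neighbours of any signal. It was above that of other probes under each of these. Of the 10 most changed probes named, PPM1A and NTN1 lost the call with normexp, and the others kept direction and call under each alternative run.

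With the replicate number as a block, 362 were higher and 1169 lower. With no background filter on the probes fitted the counts were 340 and 1216, and with a trend in the limma variance prior 510 and 1582. Same-numbered replicates correlated at 0.05 in their deviations from the group means, so the samples share only a number. With 2 arrays per condition, probes near background have only imprecise ratios, and only 161376 of the 474411 probes had signal well above background.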
